A study of Mus musculus with 6 samples.

Results

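The data compared here were the peaks captured with the even-numbered and with the odd-numbered oligonucleotides against 1 RNA, Bloodlinc (also named alncRNA-EC7), in ChIRP-seq of MEL cells. All peaks on chromosomes 1 to 19 were taken, which were 17524 of the 18114 peaks of the even list and 19875 of the 20596 peaks of the odd list. These 37399 peaks were the bulk of the 39762 peaks in the 6 lists of the series. MEL is an established mouse erythroleukaemia line, and every library was labelled as made from cells on day 5 of differentiation in 2% dimethyl sulfoxide (DMSO). The other lists came from a pulldown of Bloodlinc for which the label gives no pool (494 peaks on these chromosomes), a control without probes (116 peaks), an RNase control (121) and an input (144). The peak names of the input carry the tag MELd0 against its day 5 label. Each condition had 1 library and the lists give peaks without reads. Depth was therefore unknown, no difference could be tested over replicates, and every value below describes these libraries. Intervals are 95% intervals that cover the counting of peaks only (exact binomial for shares, binomial order statistics for medians).

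ChIRP-seq (chromatin isolation by RNA purification) hybridises short biotinylated oligonucleotides to an RNA on crosslinked chromatin and sequences the DNA recovered with it. The oligonucleotides that tile the RNA are numbered along it and divided into an even and an odd pool. The pools share no oligonucleotide, so DNA bound by the RNA should be recovered with either pool, whereas DNA that pairs with a single oligonucleotide should come down with 1 pool. Long noncoding RNAs such as Bloodlinc, which arises from a super-enhancer active in erythroid cells, are studied in this way to find the chromatin they contact.

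The peaks of both pools had almost the same width. The median was 436 bp in the even list (interval 435 to 438) and 442 bp in the odd list (441 to 444), and the quartiles were 396 and 494 bp for even peaks and 395 and 508 bp for odd peaks. Even peaks ran from 200 to 2987 bp and odd peaks from 210 to 2744 bp. The odd median was the larger on 14 of the 19 chromosomes. The controls had a different shape, with medians of 134 bp (no-probe), 130 bp (RNase) and 62 bp (input). In the no-probe list 59 of 116 peaks had the width of exactly 134 bp, and in the RNase list 56 of 121 had exactly 128 bp. Peaks under 300 bp were 95.7% of the no-probe list and 95.9% of the RNase list, but 2.08% of the even list and 2.42% of the odd list. Widths thus separated both pools from the controls far more than they separated the pools from each other. The commonest control widths, 134 and 128 bp, were also the smallest of their lists. The pulldown differed from both pools too, with a median of 566 bp. How far peak calling set these widths was not tested.

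**Figure D1:**
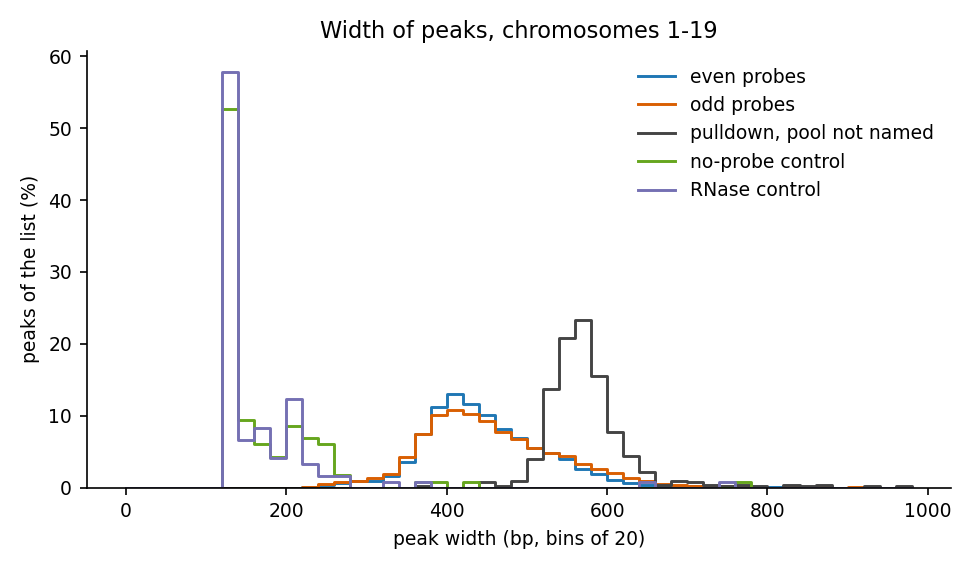
Width of peaks on chromosomes 1 to 19 (x axis, bp in bins of 20, up to 1000 bp) as a share of each list (y axis, %), for the even and odd pools, the pulldown and the no-probe and RNase controls. The even and odd curves lie on each other around 436 and 442 bp, the pulldown around 566 bp, and both controls are highest below 150 bp.

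Within each list wider peaks had higher scores. The Spearman coefficient of width with score was 0.696 over the 17524 even peaks and 0.718 over the 19875 odd peaks, a description across peaks of 1 library. From the lowest to the highest quintile (5 classes of equal size) of the scores in its own list, the median width went from 388 to 530 bp for even peaks and from 385 to 554 bp for odd peaks. The pools differed by -3 bp (odd minus even) in the lowest quintile, and by 0, 8, 11 and 24 bp in the following ones up to the highest.

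Only 22 even and 25 odd peaks were wider than 1000 bp. The widest even peak was at chr19:37332778-37335764 (2987 bp, even rank 130), and the 2nd widest odd peak at chr19:37333118-37335730 (2613 bp, odd rank 2656) lay inside it. The widest odd peak, at chr11:102235676-102238419 (2744 bp, odd rank 9), met a pair of even peaks. It overlapped 1588 bp of the even rank 1 peak of 1628 bp, which was also the 2nd widest of its list, and the whole of a peak of 535 bp (even rank 48). The 3rd widest even peak, at chr2:169346454-169347902 (1449 bp), met an odd peak of usual width at chr2:169347471-169347891. The 3rd widest odd peak, at chr4:131165013-131166463 (1451 bp), met no even peak, and the nearest one began or ended 4333 bp away. Among the peaks over 1000 bp, 12 of the 22 even and 10 of the 25 odd peaks overlapped the other pool. Over the whole lists the shares were 15.4% of even and 13.6% of odd peaks. From 700 bp up they were 28.4% and 19.7%. A wider peak can meet the other list more easily, and these few peaks were not compared at like width.

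Overlap by at least 1 bp joined 2696 even peaks to 2696 odd peaks in 2697 pairs. The share was 15.4% of even peaks (14.9% to 15.9%) and 13.6% of odd peaks (13.1% to 14.0%). The joining was 1 to 1 except that the wide chromosome 11 odd peak met 2 even peaks and that 1 even peak, at chr11:95890067-95891110, met 2 odd peaks; the latter peak was looked up after its count was seen. For comparison, 27 of the 116 no-probe peaks (23.3%) met an RNase peak, which was 22.3% of the RNase list. The lists differ in length and in how they were selected, so these shares cannot be set on one scale. By chromosome, the shared part ranged from 13.1% (chromosome 19) to 17.5% (chromosome 14) of even peaks and from 11.6% (chromosome 3) to 16.3% (chromosome 15) of odd peaks. Without chromosome 11 the shares were 15.5% and 13.6%.

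Where the pools met, they met at nearly the same base. The midpoints of the paired peaks lay a median of 17 bp apart (16.5 to 18), with quartiles of 8 and 33 bp, against a median overlap of 439 bp. In 2304 of the 2697 pairs (85.4%) the offset was at most 50 bp, and in 2495 (92.5%) at most 100 bp. The offset had no preferred side. The odd midpoint was to the right in 1311 pairs, to the left in 1362 and at the same position in 24, with a median signed offset of -0.5 bp. The pulldown list, measured in the same way, was offset by a median of 16 bp from even peaks (302 pairs) and by 19.5 bp from odd peaks (449 pairs). The 27 pairs of no-probe and RNase peaks had a median offset of 8.5 bp (1.5 to 32). Their median widths were 238 bp (no-probe) and 210 bp (RNase), and overlap of narrower peaks allows only smaller offsets. As a share of the mean width of a pair, the median offset was 3.31% there and 3.53% for even and odd peaks. A small offset was therefore also found between the control lists, though on 27 pairs with a wide interval. No-probe and RNase peaks also met input peaks, in 22 and 17 pairs, with median offsets of 11 and 20.5 bp.

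Hardly any pair was a glancing contact. The overlap was below 50% of the smaller peak in 21 pairs (0.779%), and 9 pairs overlapped by under 50 bp, the smallest by 1 bp. Just outside the rule, 19 even and 20 odd peaks without a partner had a peak of the other pool within 50 bp. With an overlap of at least 50% of both peaks required, 15.0% of even and 13.2% of odd peaks were shared. The largest offsets were those of the pair of even peaks under the wide chromosome 11 odd peak, at 628.5 and 598 bp. The next was on chromosome 5, where an even peak at chr5:32449692-32450385 (694 bp) overlapped the right end of an odd peak at chr5:32448842-32450150 (1309 bp), with midpoints 542.5 bp apart.

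The number of even-odd pairs fell off within about the width of a peak and then varied little. Over all pairs of an even and an odd peak, whether overlapping or not, 2495 had midpoints within 0.1 kb, a rate of 24950 per kb of separation. The rate was 1053 per kb from 0.1 to 0.25 kb and 276 per kb from 0.25 to 0.5 kb. It was 406 per kb from 0.5 to 1 kb and 414 from 1 to 2 kb, slightly above the 375.6 from 5 to 10 kb and the 368 from 50 to 100 kb. Pairs of peaks without a partner had rates of 286, 302 and 268 per kb at 0.5 to 1 kb, 1 to 2 kb and 50 to 100 kb. Pairs within 1 list showed a like small difference, at 185 and 169.92 per kb for even peaks and 217 and 204 per kb for odd peaks at 1 to 2 kb and 50 to 100 kb. Peaks of 1 list do not overlap each other, so few such pairs are possible below a peak width.

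**Figure D2:**
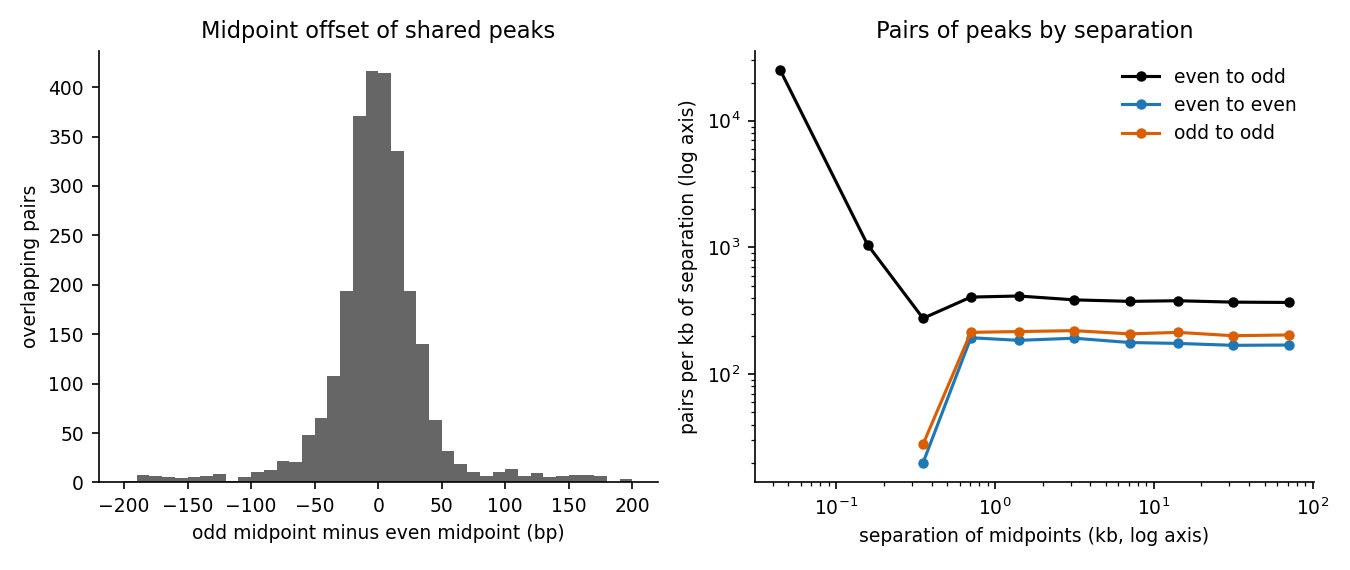
Left, the signed distance from the even to the odd midpoint (x axis, bp in bins of 10, shown to 200 bp on each side) for overlapping pairs (y axis, number); the bars are centred on 0, with a median of -0.5 bp. Right, the number of peak pairs per kb of midpoint separation (log axes) between and within the lists; the even to odd line falls from 24950 per kb below 0.1 kb to 276 per kb and is near 370 per kb from 20 to 100 kb.

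The members of a pair were unequal in width and rank. The even peak was the wider in 2245 pairs (83.2%) and the odd peak in 440, with 12 of equal width. The median width was 532 bp on the even side and 454 bp on the odd side, and the median difference within a pair was 74 bp. In 1901 pairs (70.5%) the odd peak lay wholly inside the even peak, in 131 (4.86%) the even peak lay inside the odd peak, and in 665 (24.7%) they were staggered. The odd peak started a median of 36 bp after the even peak and ended 37 bp before it, so the narrowing was alike on both sides. The pulldown peaks did not show this to the same degree: the even partner lay inside in 33.4% and the odd partner in 41.0% of their pairs.

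Ranks within each list ran the same way as widths. The score percentile (100 for the top of a list) had a median of 91.0 for the even and 43.8 for the odd member of a pair, and the even percentile was the higher in 2514 of 2697 pairs (93.2%). The median difference was 39.9 percentile points. The even and odd ranks had a Spearman coefficient of 0.488 over the pairs, and the difference in percentile and the difference in width had one of 0.591. Both describe pairs that share 2 libraries. Even peaks of the highest quintile made up 2087 of the 2696 shared even peaks, and their partners were spread over the odd list, with 387, 453, 510, 491 and 247 pairs from the lowest to the highest odd quintile. In the other direction, odd peaks of the lowest quintile had even partners at a median percentile of 84.0 and those of the highest at 98.1.

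The pairs with the higher odd percentile looked different from the rest. There were 183 of them, and the odd peak was the wider in 136 (74.3%), against 304 of the 2514 others (12.1%). Width followed score in both lists, so a split by score percentile largely fixed this contrast in width beforehand. Their midpoints were a median of 64 bp apart, against 16.5 bp, and 44.3% were within 50 bp, against 88.4%. Offsets over 100 bp were found in 80 of the 183 (43.7%) and in 122 of the 2514 (4.85%). A pulldown peak met 11 of the 183 even members (6.01%) and 248 of the 2514 (9.86%), without matching these even members for score.

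The 2 lists also differed in which part of each was shared. By score quintile of its own list, the share of even peaks with an odd partner was 2.45%, 3.48%, 3.74%, 7.68% and 59.6% from lowest to highest. The share of odd peaks with an even partner was 15.5%, 15.5%, 15.6%, 13.9% and 7.27%. By decile, the rise of the even list came in its last part, with 9.55% in the 8th, 36.1% in the 9th and 83.4% in the 10th decile. The odd list had 13.6%, 10.4% and 4.16% there. The offset of the pairs was a median of 43.5 bp in the lowest even quintile (86 shared peaks, 51.2% of pairs within 50 bp) and 16 bp in the highest (89.2% within 50 bp). Over the odd quintiles the median was between 16.5 and 18 bp. The share of pairs within 50 bp was 85.7% to 87.7% in the 4 lower odd quintiles and 76.6% in the highest, and the median offset of the highest odd decile was 23.2 bp (17 to 38). Offsets were thus larger among the low-scoring even peaks and, to a smaller degree, among the highest-scoring odd peaks. The lowest even and the highest odd quintile also had the lowest shares of their lists, 2.45% and 7.27%. Incidental overlaps would weigh more where few peaks are shared, and their part was not tested.

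**Figure D3:**
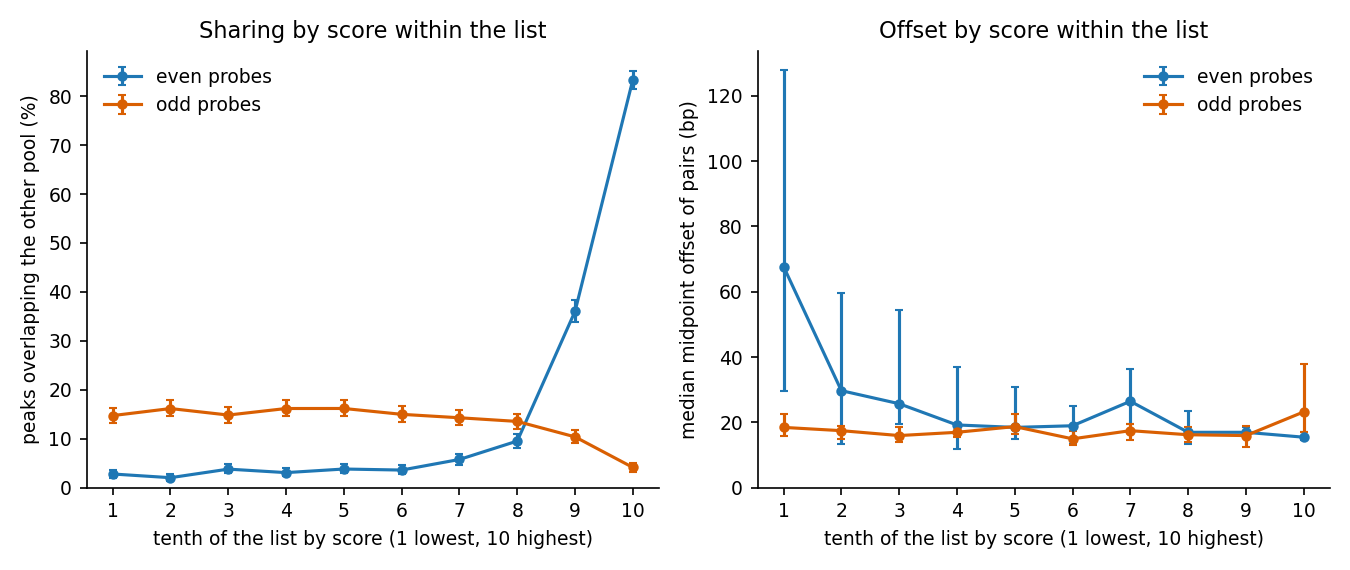
Left, the share of peaks that overlap the other pool (y axis, %) by decile of score within the own list (x axis, 1 lowest, 10 highest), with exact binomial 95% intervals; the even line reaches 83.4% in the last decile and the odd line ends at 4.16%. Right, the median midpoint offset of the pairs (y axis, bp) by the same deciles, with 95% order-statistic intervals; the widest interval is that of the lowest even decile, with 50 shared peaks.

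Sharing by width followed the same contrast. Of even peaks from 350 to 400 bp, 2.56% had an odd partner, of those from 450 to 500 bp 13.6%, and of those from 550 to 600 bp 60.0%. Even peaks of 700 bp and more fell back to 28.4% (23.0% to 34.3%, 264 peaks). Odd peaks were shared at 11.2%, 17.2% and 10.9% in these 3 classes and at 19.7% (15.4% to 24.5%, 310 peaks) from 700 bp up. Even peaks with a partner were a median of 107 bp wider than those without (532 against 425 bp), and odd peaks with a partner 14 bp wider (454 against 440 bp). Within a score quintile the even difference was smaller, and shared even peaks were 9.5 to 37 bp wider than unshared ones. Within the odd quintiles the difference was 17, 21, 27 and 28 bp and then -8 bp in the highest.

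The pair highest in both lists together was the one on chromosome 11, at even rank 1 and odd rank 9, followed by the neighbouring even peak of rank 48 on the same odd peak; both met the rank 1 pulldown peak. Whether this is the Bloodlinc gene was not determined, since no mm9 annotation was used. The next pair, at chr9:24135904-24136541 in the even list (rank 14) and chr9:24135865-24136553 in the odd list (rank 160), was offset by 13.5 bp. The pair on chromosome 15 at 67552131 to 67552739 had even rank 52 and odd rank 334, and that on chromosome 1 at 107971752 to 107972403 had even rank 15 and odd rank 393. These met pulldown peaks of rank 97, 263 and 43. The last of the 10 highest met no pulldown peak. They had even ranks of 11 to 61 and odd ranks of 540 to 844, as at chr5:96839299-96839779 (even) and chr5:96839308-96839788 (odd), where both peaks were 481 bp wide and 9 bp apart. The others were even peaks at chr13:37432413-37433021, chr7:13599690-13600261, chr1:93960905-93961517 and chr5:12317789-12318390, with odd midpoints 19.5, 12, 16.5 and 1.5 bp away. Apart from the chromosome 11 pair, then, the best agreement of the lists joined an even peak near the top of its list to an odd peak ranked lower.

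The highest peaks without a partner lay from 2.89 to 188 kb from the other pool. In the even list they were at chr2:180495982-180497088 (1107 bp, rank 2), chr2:117127008-117127803 (796 bp, rank 4) and chr4:150045944-150046793 (850 bp, rank 48), and the nearest odd peaks were 130, 55.8 and 45.6 kb away. In the odd list they were at chr8:71595974-71596720 (747 bp, rank 1), chr1:166135662-166136347 (686 bp, rank 2) and chr10:127044941-127045910 (970 bp, rank 4), with the nearest even peaks at 188, 55.9 and 2.89 kb. The first 2 of the even list met pulldown peaks of rank 6 and 14, and all 3 of the odd list met pulldown peaks, of rank 8, 11 and 18. The even peak on chromosome 4 met none and had another even peak 0.399 kb away.

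Peaks without a partner lay about as far from the other pool as from their own list. From the 14828 even peaks without a partner the nearest odd peak was a median of 34.6 kb away (33.5 to 35.4), and their nearest even neighbour 38.3 kb. From the 17179 odd peaks without a partner the nearest even peak was 40.0 kb away (39.1 to 41.1), and their nearest odd neighbour 35.2 kb. Both distances to the odd list, which is the longer list, were the shorter ones. With the odd list reduced to the length of the even list, the distances to the other pool were 39.2 kb from even and 40.9 kb from odd peaks. A peak of the other pool lay within 1 kb of 2.30% of these even and 2.09% of these odd peaks, within 10 kb of 19.3% and 17.2%, and within 100 kb of 83.7% and 78.9%. The nearest peak of any kind belonged to the other pool for 50.3% of the even peaks, where odd peaks are 53.1% of all, and for 48.8% of the odd peaks, where even peaks are 46.9% of all. The distance had no steady course with score, with medians from 33.2 to 35.6 kb over the even quintiles and from 36.8 to 42.4 kb over the odd quintiles. The shortest odd median, 36.8 kb, was that of the lowest quintile, and the other odd quintiles had 40.0 to 42.4 kb.

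**Figure D4:**
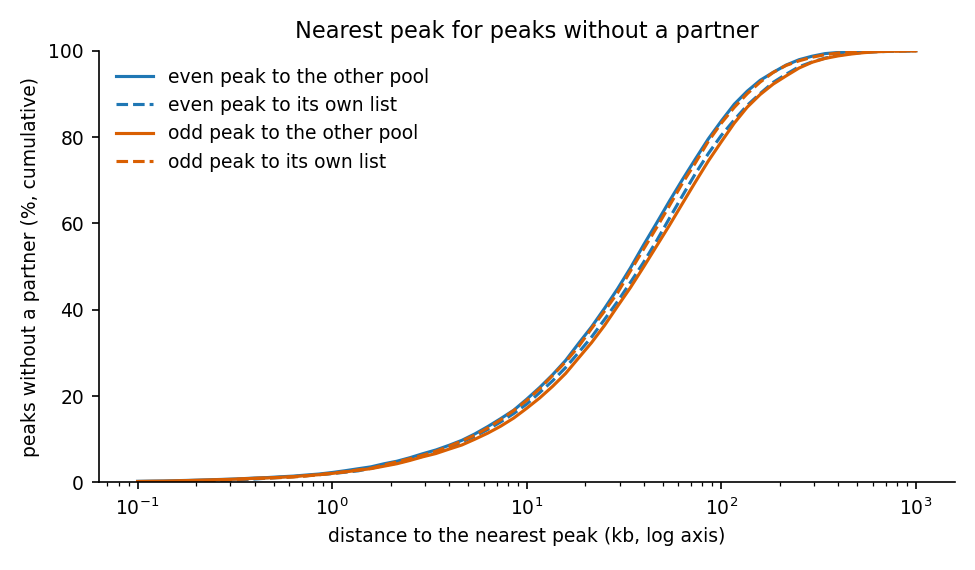
Cumulative share (y axis, %) of even and odd peaks without a partner whose nearest peak lies within a given distance (x axis, kb, log axis), to the other pool (solid) and to the own list (dashed). The 4 curves nearly coincide, with medians of 34.6 and 40.0 kb to the other pool and 38.3 and 35.2 kb to the own list.

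The median gaps of the lists were close at full list length. The median gap between neighbouring peaks was 76.9 kb in the even list (75.1 to 78.8) and 71.9 kb in the odd list (70.5 to 73.7). With the odd list reduced to its highest scores, as many as the even list has, its median gap was 82.4 kb (80.6 to 84.3). The order of the pools in spacing thus turned with this cut, which also removed the lowest odd scores. Gaps under 10 kb were 9.70% of even and 10.1% of odd gaps, and gaps under 1 kb were 1.05% and 1.11%. In the no-probe list 11.3% of 97 gaps were under 1 kb, in the RNase list 5.88% of 102 and in the input list 33.3% of 126. In the pulldown list the share was 0.211% of 475 gaps. Shared and unshared peaks had like neighbours, with the nearest even peak at a median of 40.5 kb from shared and 38.3 kb from unshared even peaks, and the nearest odd peak at 35.6 and 35.2 kb from shared and unshared odd peaks.

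Peaks with gaps under 10 kb were joined into runs. Runs of at least 3 peaks numbered 189 in the even list and 206 in the odd list, and held 606 and 643 peaks. Most had no peak of the other pool inside them, 112 of the even runs (59.3%) and 107 of the odd runs (51.9%). No such share was taken for other stretches of like length or peak number, so these counts do not set runs apart. In these runs 12.7% of even and 14.5% of odd peaks had a partner, near the 15.4% and 13.6% of the whole lists.

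The longest even run stood at chr2:116361581-116388455. It held 10 peaks in 26.9 kb, with a median gap of 1.98 kb, and no odd peak. Its peaks were wide, from 384 to 1433 bp with a median of 753.5 bp, yet of middling score, with even ranks of 2865 to 14131. The longest odd run, at chr12:114029220-114059844, held 6 peaks in 30.6 kb with a median width of 411.5 bp, and 3 even peaks lay in it. No other run of either list had more than 6 peaks, and runs of 5 or more numbered 8 in the even and 2 in the odd list.

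The local density of the pools rose and fell together along the chromosomes. In windows of 1 Mb, 2418 in all, the even list had 7.25 ± 4.73 peaks (mean and SD over windows) and the odd list 8.22 ± 4.65. The counts of the pools had a Pearson coefficient of 0.688 and a Spearman coefficient of 0.663. Within single chromosomes the Spearman coefficient ran from 0.489 to 0.732. Without the shared peaks the coefficients were lower, at 0.589 and 0.570. The windows of both lists share the genome's mappable sequence, its copy number in this line and the way the lists were made, and the part of each was not tested. Only 11 windows held even peaks and no odd peak, 35 held odd and no even peak, and 34 held neither.

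The odd list had more peaks on each of the 19 chromosomes, from 1.02 times the even count on chromosome 15 to 1.27 times on chromosome 14. It had more in 1312 of the 2092 windows in which the counts differed, which is 62.7% (60.6% to 64.8%). Most of this majority went with the length of the odd list. With the odd list cut to its highest scores, to the length of the even list, it was 52.4% (50.2% to 54.5%). That cut also removed the lowest odd scores, so length and score changed together. The ratio of odd to even peaks was lower in denser windows. Windows with 5 to 9 peaks of both lists together held 1.29 odd peaks per even peak, those with 10 to 19 (1125 windows, 8739 odd and 7444 even peaks) held 1.17, those with 20 to 29 held 1.09, those with 30 to 49 held 1.01, and the 6 windows with 50 or more held 0.933. Pairs were more frequent in the dense windows, with 12.9 pairs per 100 even peaks at 5 to 9 peaks, 15.9 at 20 to 29 and 17.8 at 30 to 49. An even peak in a dense window has more odd peaks to meet, so part of this rise is built in. The windows were not compared at like score.

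**Figure D5:**
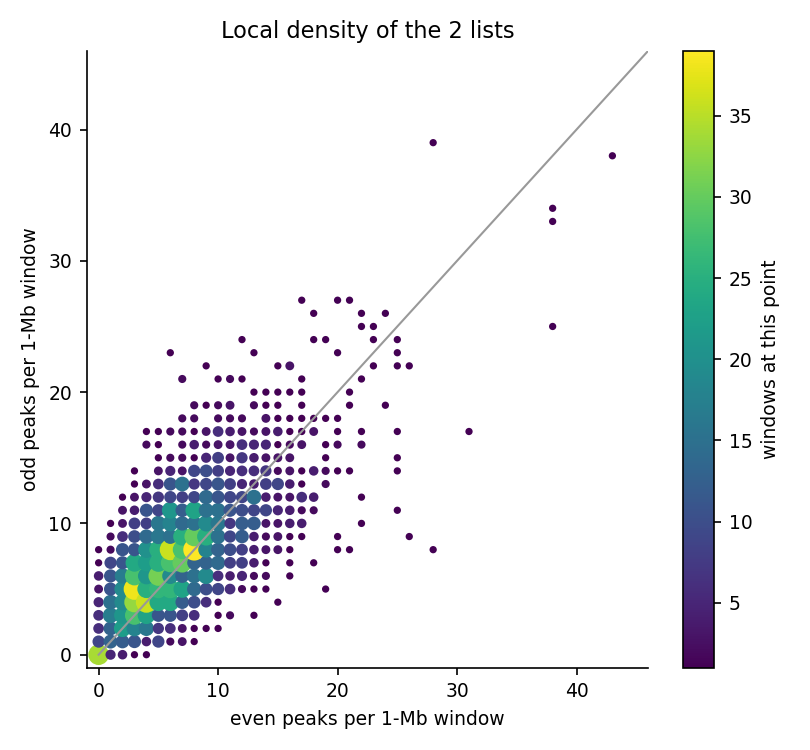
Number of even (x axis) and odd (y axis) peaks per window of 1 Mb, with the colour and size of a point giving the number of windows there and the grey line equal counts. Of the windows off the line, 62.7% lie above it, and the windows with the most even peaks, from 31 to 43, lie below it.

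The densest windows were largely common to the pools. The window from 113 to 114 Mb on chromosome 12 held 43 even and 38 odd peaks, with 10 pairs, the most of any window. On chromosome 3, the window from 95 to 96 Mb held 38 even and 33 odd peaks and the next one 28 even and 39 odd peaks, the highest odd count. On chromosome 9, the windows starting at 14, 15 and 21 Mb held 38, 31 and 38 even peaks and 25, 17 and 34 odd peaks. The window from 94 to 95 Mb on chromosome 1, with 21 even and 27 odd peaks, was the last of the 5 highest of the odd list.

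In some windows the counts of the pools were far apart. Counts differed by 10 or more in 48 windows. The largest even excess was at 104 to 105 Mb on chromosome 3, with 28 even and 8 odd peaks. Next were 25 to 26 Mb on chromosome 7, with 26 and 9, and 15 to 16 Mb on chromosome 9, with 31 and 17. In the chromosome 7 and chromosome 9 windows both counts were above the mean of their list. The largest odd excess was at 25 to 26 Mb on chromosome 2, with 6 even and 23 odd peaks. It was followed by 35 to 36 Mb on chromosome 2 and 37 to 38 Mb on chromosome 5, each with 7 even and 21 odd peaks. These windows held from 0 to 4 pairs. The differences rest on 1 library a pool and were not tested.

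The pulldown list met each pool in different parts. It overlapped 301 even peaks (1.72% of the list) and 449 odd peaks (2.26%). Counted from the pulldown side, 301 of its 494 peaks met an even peak and 449 met an odd peak. Most of this short list thus lay on pool peaks, and the low shares reflect the length of the pool lists. Of even peaks with a partner, 259 of 2696 met a pulldown peak (9.61%), and of those without, 42 of 14828 (0.283%). This contrast also holds a difference in score, since 2087 of these 2696 peaks were in the highest even quintile. Within that quintile the shares were 12.1% with and 2.54% without a partner. Of odd peaks with a partner, 258 of 2696 did (9.57%), and of those without, 191 of 17179 (1.11%). All of these 191 were in the highest odd quintile, where 5.18% of peaks without a partner met a pulldown peak, against 2.54% in the highest even quintile. Odd peaks with a partner met the pulldown in every quintile, from 3.05% in the lowest to 27.3% in the highest. Low-scoring odd peaks were thus met by the pulldown only where an even peak also lay. This was not particular to the odd list. Of the 42 even peaks without a partner that met the pulldown, 36 were in the highest even quintile and 6 in the next. Odd peaks of the lowest quintile had even partners at a median percentile of 84.0. A partner and a high even score were therefore not told apart here. No label tells if the pulldown was captured on its own or made from pooled reads, so its overlaps may not compare separate libraries.

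Overlap with the controls was as follows. The no-probe peaks covered 21.3 kb and the RNase peaks 21.2 kb in all, so few overlaps with lists so short were possible, and their absence says little. No even or odd peak overlapped a no-probe or RNase peak, and 1 odd peak without a partner overlapped an input peak. That odd peak, at chr9:123782128-123782427 with odd rank 19207 and likewise looked up afterwards, held the input peak of 123782249 to 123782325. Within 10 kb of a no-probe peak lay 17 even and 21 odd peaks, and within 10 kb of an RNase peak 22 even and 21 odd peaks. The closest approaches to the no-probe list were 0.336 kb for an even peak with a partner and 0.373 kb for an odd peak without one. The closest to the RNase list were 0.641 kb for an even and 0.125 kb for an odd peak, both without a partner.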

How the data were processed

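Each sample had 1 deposited peak list (BED, mm9). Bowtie2 and bedtools are named, without a role, per the submitters' processing notes. The peak caller, thresholds and versions were not given in the sources used here. The only measurement is the authors' score per peak, of unstated scale, used only for ranks within a list on chromosomes 1 to 19. Read numbers per peak were not used here, and the depth is unknown. Positions are printed from 1. Pairs overlapped by at least 1 bp, gaps and distances are empty bases between peak edges, and windows of 1 Mb were counted by midpoint from the first to the last occupied one. No test was run. The members, measures and regions were chosen with earlier results of these data known. Regions were named by rule: the 10 pairs with the highest mean percentile, the 3 largest offsets, the 3 widest peaks and 3 highest unshared peaks of each list, the 5 densest and 3 most unequal windows, and the longest runs. Overlaps and distances were tested on simulated lists with planted pairs. Python 3.11.15, numpy 2.4.6, pandas 2.3.3, SciPy 1.17.1 and matplotlib 3.10.9 were used. Alternatives were the upper 50% of each list by score, equal list length, other overlap rules, joined peaks, other windows, chromosomes X and Y, and removal of chromosome 11. No mm9 genome, annotation or probe sequences were used here, so genes and sequences are not given.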

Additional observations from a re-analysis of the deposited data

Results flagged for a closer look

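In 2 contrasts the pools moved in opposite directions, with 1 library each, so the difference between the pools was not tested. The fraction of peaks that had a partner was 24.5 percentage points higher in the upper 50% of the even list by score than in the lower (27.6% against 3.14%), whereas in the odd list the same difference was -4.17 points (11.5% against 15.6%). The median distance from peaks without a partner to the other pool differed between the upper and lower 50% by -0.407 kb for even peaks (34.3 against 34.7 kb) and by 1.27 kb for odd peaks (40.7 against 39.4 kb). The latter differences are small beside the quartiles of these distances, 13.6 and 73.9 kb for even and 15.7 and 87.3 kb for odd peaks.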

How the results depend on the processing

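Of 56 values recomputed under alternatives, 36 stayed within the counting interval of the reported value, and 20 did not. All values with chromosomes X and Y, without chromosome 11, with peaks joined across gaps under 1 kb and with 50% reciprocal overlap were among the 36. With only the upper 50% of each list by score, 12.4% of even and 10.9% of odd peaks were shared, the median offset was 16 bp, median widths were 483 bp (even) and 497 bp (odd), and median gaps were 158 kb (even) and 145 kb (odd). Distances to the other pool were then 71.2 kb (even) and 81.2 kb (odd), and 60.4% of unequal windows had more odd peaks; fewer peaks lengthen gaps and distances by construction. With the odd list at the length of the even list, 13.4% of even peaks were shared, the even distance was 39.2 kb, the odd width 453 bp, the odd gap 82.4 kb and the share of windows 52.4%. With midpoints within 1 kb in place of overlap, 16.5% of even and 14.6% of odd peaks were shared, with a median offset of 19 bp. The share of windows was 59.9% in windows of 500 kb and 75.7% in windows of 5 Mb. No paired analysis was possible because each condition has 1 library. The unknown depth limits any statement on peaks found in 1 list and not in the other.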
